A study of Mus musculus with 16 samples.

Results

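COX1 (mt-Co1) is the mitochondrial gene for subunit 1 of cytochrome c oxidase, complex IV of the respiratory chain (gene ID 17708, MT:5328-6872 on GRCm38, forward strand). All alleles at positions 5328 to 6869 were taken, which leaves out the last bases, where the gene overlaps a tRNA gene. An allele is a position with 1 of its 3 possible non-reference bases. COX1 gave 4626 alleles at 1542 positions in 514 codons, of 48897 alleles at 16299 positions in the whole mitochondrial genome. An allele is written as reference base, position and non-reference base, counted from 1 in the GRCm38 mitochondrial sequence. A protein change is written in the same way, with codons counted from 1 at the start codon. Because all alleles of the gene were taken, no measured value chose the members.

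The 16 ATAC-seq libraries came from femoral cells of 3-month-old mice, which all carried PolG D257A on both copies. PolG copies mitochondrial DNA, and the D257A form lacks its proofreading activity. There is no group with a normal polymerase, so no mutation level here can be set against a background level. Cells were parted by flow cytometry into 8 subsets. The labels name them CD45, CD105, CD24, CD29, CD24_CD29, Thy, 6C3 and Thy_6C3, with a replicate 1 and a replicate 2 of every subset. The labels call all of them skeletal cells. They give neither the gates nor the mouse or pool behind a library, so p-values measure the spread between these libraries only. The files hold mitochondrial DNA, so the sorted cell types could not be checked against their markers.

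COX1 forms the catalytic core of complex IV. It holds heme a, heme a3 and copper B, and at the heme a3 and copper B site oxygen is reduced to water while protons are pumped across the inner membrane. COX2 brings electrons from cytochrome c through its own copper centre, and COX3 is the third subunit coded in mitochondrial DNA. A cell holds many copies of that DNA, so a mutation is present at a fraction of the copies, a state called heteroplasmy.

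Of the COX1 alleles, 5 reached 1% or more in all 8 libraries of a replicate number. The letters below are the 21 reference bases around each, 5′ to 3′ on the forward strand, with the base that changes in capitals. They show which codon each allele falls in, and the results turn on these positions.
C5692T (A122V, codon GCA, MT:5682-5702): gaagcaggagCaggaacagga
G5988A (D221N, codon GAT, MT:5978-5998): aactttctttGatcccgctgg
C6227T (D300D, codon GAC, MT:6217-6237): tagatgtagaCacacgagctt
G5840A (M171M, codon ATG, MT:5830-5850): ttatcaacatGaaacccccag
C5498T (I57I, codon ATC, MT:5488-5508): acaatgttatCgtaactgccc

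The next set is shown for the kind of change each allele makes. It holds both stop gains counted outside Thy replicate 2, the start codon allele, both counted alleles at residues that hold copper B, and the allele with the highest mean among changes other than transitions.
G5373A (G16*, codon GGA, MT:5363-5383): caaagatatcGgaaccctcta
G5884A (W186*, codon TGA, MT:5874-5894): ctatttgtctGatccgtactt
A5328G (start codon ATG, MT:5318-5338): cattttacctAtgttcattaa
A6046G (H240R, codon CAC, MT:6036-6056): ttctttgggcAcccagaagtt
C6197T (H290H, codon CAC, MT:6187-6207): tatgagcccaCcacatattca
T6754G (F476C, codon TTT, MT:6744-6764): tgagaggcctTtgcttcaaaa

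The allele fraction was the count of the non-reference base divided by the coverage at that position. Mean coverage over COX1 ran from 6350 counts per position in CD24_CD29 replicate 2 to 69117 in CD29 replicate 1. At 3 counts of that mean coverage, a count of 0 leaves room for 0.0472% in the first of these and 0.00434% in the second. Intervals for single libraries are exact (Clopper-Pearson) at 95%, and intervals and limits cover counting error only. An allele was called counted where it reached 1% and at least 5 counts in that library. The library Thy replicate 2 stood apart from the other 15 and is given separately: 190 COX1 alleles were counted there, against 4 to 34 in the others, and 178 of the 190 were A>C or T>G changes. Its mean A>C fraction over COX1 was 71.9 per 10000, against a median of 8.77 in the other 15 libraries.

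Most COX1 alleles stayed far below 1%. In all, 277 of the 4626 were counted in at least 1 of the 16 libraries (5.99%, against 7.13% of all alleles of the mitochondrial genome). In the 15 libraries without Thy replicate 2 there were 93 (2.01%, against 2.31% of all alleles). Of these 93, 74 were counted in 1 library, 7 in 2 libraries and 12 in 3 or more. They were spread over the gene, with 23 in the first 514 positions, 37 in the middle 514 and 33 in the last 514. Transitions, which swap A with G or C with T, made up 65 of the 93.

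By effect on the protein, 39 of the 93 were synonymous, 52 missense and 2 stop gains. This was 3.53% of the 1106 possible synonymous alleles, 1.58% of the 3291 possible missense alleles and 0.873% of the 229 possible stop gains. Among transitions only, where every position has 1, the shares lay closer together: 28 of 554 synonymous (5.05%), 35 of 926 missense (3.78%) and 2 of 62 stop gains (3.23%). These are counts over alleles of the same libraries and were not tested. T>C gave 23 of the counted alleles, C>T 20, A>T 13, G>A 12 and A>G 10.

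**Figure D1:**
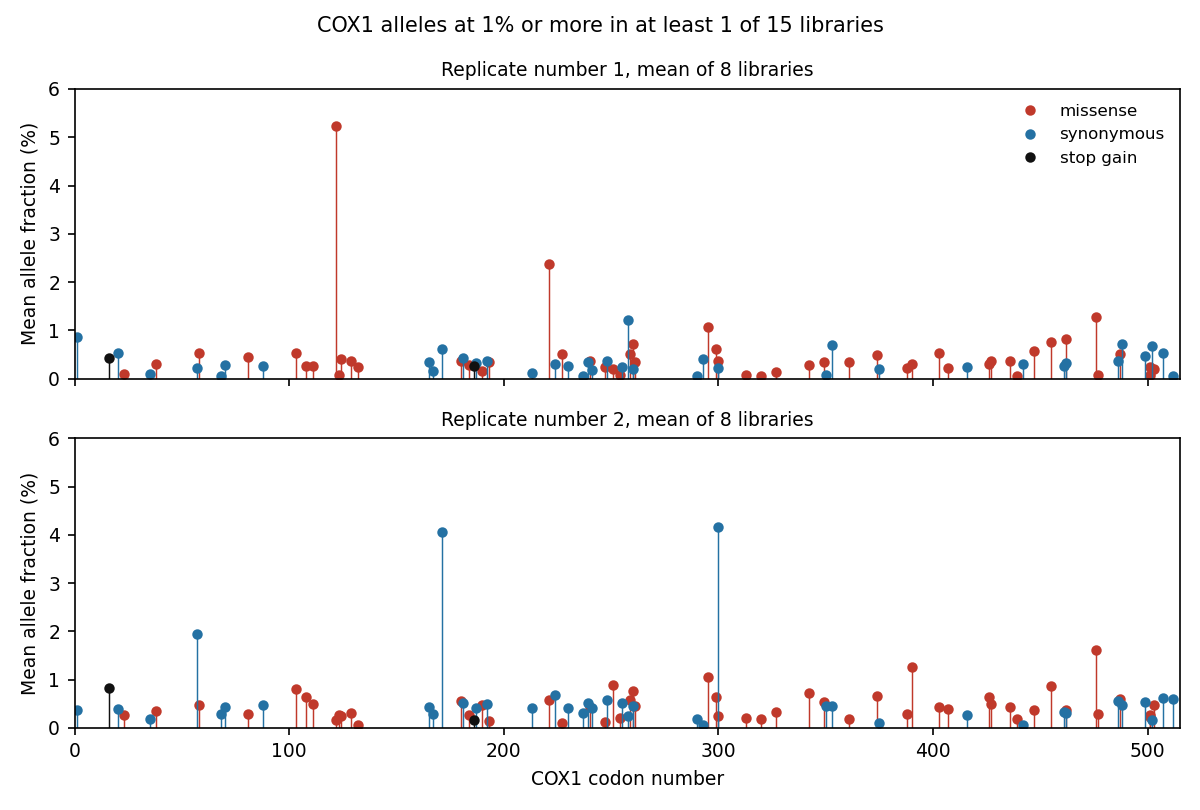
Mean allele fraction in percent (vertical axis) against COX1 codon number for the 93 alleles counted outside Thy replicate 2, for the 8 libraries of replicate number 1 (upper) and number 2 (lower), coloured by kind of change. Codon 122 stands highest in the upper panel at 5.24% and codons 300 and 171 in the lower at 4.16% and 4.07%, and most other alleles lie under 1%.

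The 5 COX1 alleles with the highest mean in either replicate number were each high in all subsets of 1 replicate number and low in the other. In replicate number 1, both alleles counted in all 8 libraries were missense (0.0432% of COX1 alleles, against 0.108% of all alleles). In replicate number 2, all 3 such alleles were synonymous (0.0649%, against 0.121%). The fractions were compared between replicate 2 and replicate 1 with edgeR's quasi-likelihood test, with the subset as a block and Benjamini-Hochberg adjustment over the 3487 alleles counted anywhere in the mitochondrial genome. Log2 odds below are those of the non-reference base, replicate 2 against 1.

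C5692T, which changes alanine 122 to valine, was the most frequent COX1 allele. Its fraction in replicate number 1 was 5.88% in CD45, 5.43% in Thy, 5.16% in 6C3, 5.21% in Thy_6C3, 6.36% in CD105, 4.49% in CD24, 4.23% in CD24_CD29 and 5.14% in CD29. In replicate number 2 it lay between 0.0282% in 6C3 and 0.382% in CD29, with a median of 0.163%. The lowest library of number 1 was thus above every library of number 2. The means were 5.24% ± 0.684 (SD, n = 8) and 0.171% ± 0.108 (SD, n = 8), a log2 odds of -5.25 (SE 0.404, adjusted p = 5.30e-07, edgeR).

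G5988A changes aspartate 221 to asparagine. In replicate number 1 it was at 2.96% in CD45, 3.71% in Thy, 2.24% in 6C3, 1.53% in Thy_6C3, 2.17% in CD105, 2.34% in CD24, 2.55% in CD24_CD29 and 1.54% in CD29. In number 2 it ran from 0.250% to 0.756% in 7 libraries and reached 1.37% in CD29. The numbers did not overlap, but CD29 replicate 2 came close to the lowest library of number 1. The log2 odds were -2.23 (SE 0.375, adjusted p = 0.000987, edgeR).

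C6227T leaves aspartate 300 as it is. It was at 4.19% in CD45, 4.46% in Thy, 4.80% in 6C3, 2.56% in Thy_6C3, 4.78% in CD105, 5.06% in CD24, 2.94% in CD24_CD29 and 4.45% in CD29 of replicate number 2. In number 1 the range was 0.129% to 0.547%, with a median of 0.174% and the top value in CD24. Replicate 2 was higher in all 8 subsets, by a log2 odds of 4.42 (SE 0.338, adjusted p = 5.09e-07, edgeR). Thy_6C3 and CD24_CD29 held the lowest fractions of number 2.

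G5840A turns one methionine codon, ATG, into the other of the mitochondrial code. In replicate number 2 it ran from 2.95% in CD45 to 4.71% in CD24_CD29, with a median of 4.42%. In number 1 it ran from 0.214% in CD24_CD29 to 1.14% in CD24, with a median of 0.569%. CD24_CD29 was therefore the highest library of number 2 and the lowest of number 1. The log2 odds were 2.89 (SE 0.340, adjusted p = 3.29e-05, edgeR).

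C5498T is synonymous at isoleucine 57. Its fraction was 1.47% in 6C3 to 2.56% in CD45 of replicate number 2 (median 1.94%) and 0.0303% to 0.368% in number 1 (median 0.270%). The log2 odds were 3.43 (SE 0.402, adjusted p = 3.24e-05, edgeR). The numbers did not overlap.

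**Figure D2:**
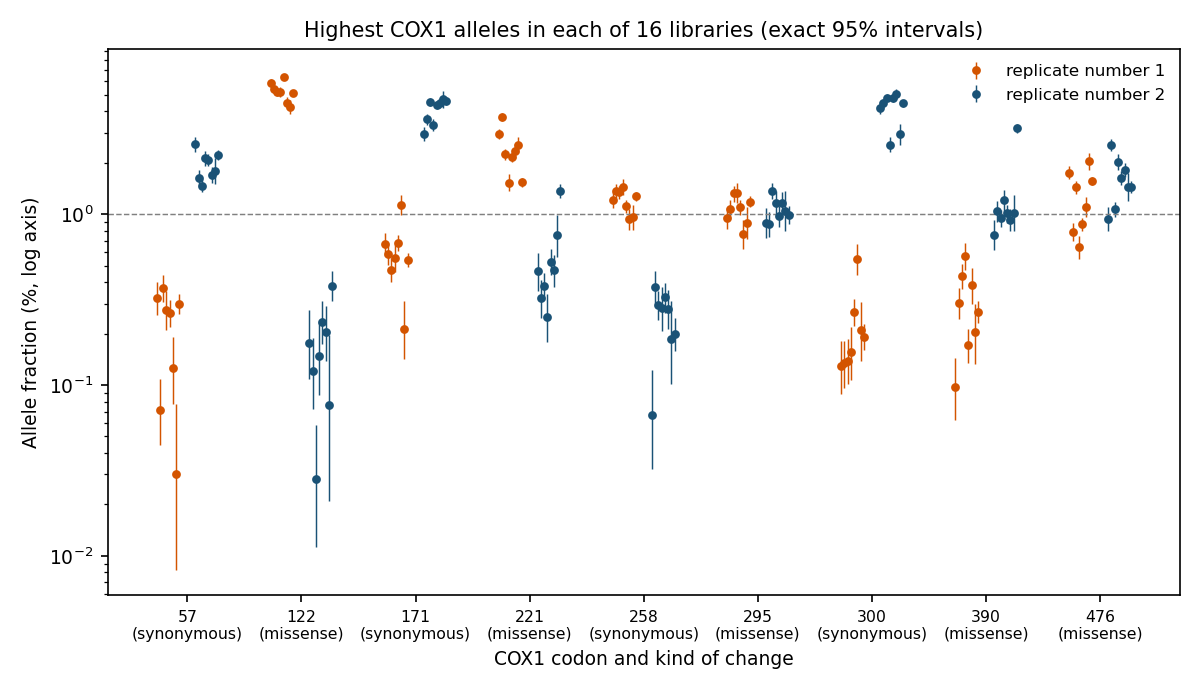
Allele fraction in percent on a log axis in each of the 16 libraries for the 9 highest COX1 alleles, named by codon and kind of change, with exact 95% intervals, and the 2 replicate numbers in different colours (within a number, libraries run from CD45 at the left through Thy, 6C3, Thy_6C3, CD105 and CD24 to CD24_CD29, with CD29 at the right). The dashed line marks 1%. The numbers stand apart at codons 57, 122, 171, 221, 258, 300 and 390 and overlap at codons 295 and 476.

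In all, 13 of the 277 COX1 alleles tested differed between the replicate numbers by edgeR's quasi-likelihood test at an adjusted p under 0.05. Of these, 7 were higher in replicate 2 (2.53%, against 3.04% of all alleles tested) and 6 were lower (2.17%, against 2.72%). DESeq2 called 12 higher (4.33%, against 3.9%) and 8 lower (2.89%, against 3.21%). COX1 thus held called alleles at shares near those of the whole genome. Most alleles tested entered only through Thy replicate 2. Without that library edgeR tested 93 COX1 alleles and called 7 higher (7.53%, against 8.76% of all 1130) and 5 lower (5.38%, against 8.58%). The median log2 odds were 0.336 over the 277 COX1 alleles and 0.322 over all alleles tested. They were 0.23 and 0.13 without Thy replicate 2, and 0.04 and 0.0073 without Thy replicate 1. Beside the 5 alleles above, T6101C, synonymous at valine 258, was at 1.21% ± 0.190 in number 1 and 0.251% ± 0.0968 in number 2 (SD, n = 8 each, adjusted p = 0.000157, edgeR). It was counted in 6 libraries of number 1 and in 0 of number 2.

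T6496C, which changes methionine 390 to threonine, ran from 0.757% to 1.20% in 7 libraries of replicate number 2 and reached 3.19% in CD29 (interval 3.00% to 3.38%). In number 1 it ran from 0.0969% to 0.568% (log2 odds 2.09, SE 0.366, adjusted p = 0.00137, edgeR). T6078C (F251L), A6863G (K512K) and T6377G (V350V) were also higher in replicate 2, with means of 0.202% and 0.897%, 0.0476% and 0.595%, and 0.0702% and 0.449% in numbers 1 and 2. T6833C (Y502Y), C6206T (F293F) and G6006C (D227H) were lower, at 0.668% and 0.152%, 0.397% and 0.0548%, and 0.517% and 0.0948%. These alleles, apart from G6006C, were named after their values were seen. For C6206T the adjusted p of 0.0147 rose to 0.139 without Thy replicate 1, to 0.0600 without Thy replicate 2 and to 0.0595 without the Thy subset. For G6006C the adjusted p of 0.0150 rose to between 0.0502 and 0.0584 when CD45 replicate 1, Thy replicate 1, CD105 replicate 1 or CD105 replicate 2 was left out, all by edgeR.

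Other frequent alleles were present in both numbers and did not pass the test between them. T6211C, which changes valine 295 to alanine, was at 1.08% ± 0.204 in number 1 and 1.06% ± 0.168 in number 2 (SD, n = 8 each), from 0.763% to 1.37% over all 16 libraries. The log2 odds were -0.02 (SE 0.275, adjusted p = 0.970, edgeR). T6754G, a T>G change of phenylalanine 476 to cysteine, was at 1.28% ± 0.501 and 1.61% ± 0.516 (SD, n = 8 each), with a log2 odds of 0.38 (SE 0.366, adjusted p = 0.732, edgeR). Its lowest fraction was 0.641% in Thy_6C3 replicate 1 and its highest 2.54% in Thy replicate 2. The mean of all 472 T>G alleles of COX1 was 0.0822% to 0.128% in 15 libraries and 0.696% in Thy replicate 2. T6754G was thus above the mean of its own change in every library.

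Alleles that end or start the protein were rare but present. G5373A turns glycine 16 (GGA) into AGA, read as a stop by the vertebrate mitochondrial code, and its mean was 0.435% ± 0.366 in number 1 and 0.834% ± 0.271 in number 2 (SD, n = 8 each, adjusted p = 0.205 by edgeR and 0.0451 by DESeq2). It was counted in Thy replicate 1 at 1.297% (interval 1.17% to 1.44%), in Thy_6C3 replicate 2 at 1.16% and in CD24_CD29 replicate 2 at 1.08%. G5884A turns tryptophan 186 (TGA) into the stop TAA and was counted in Thy_6C3 replicate 1 at 1.22% (interval 1.06% to 1.40%). Its fraction in the second Thy_6C3 library was 0.406%, and no other library was above 0.316%. A5328G turns the start codon ATG into GTG, which the vertebrate mitochondrial code also lists as a start. It was counted in Thy, 6C3 and CD105 of replicate number 1 at 1.23%, 1.29% and 1.25%, and lay between 0.140% and 0.665% in number 2 (adjusted p = 0.197 by edgeR and 0.0410 by DESeq2).

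Of the 62 transitions that would end COX1 early, 46 are G>A changes. The mean over the 46 G>A stop gains, G5373A and G5884A included, was 0.102% in both numbers. The mean over the 182 G>A missense alleles was 0.0929% in number 1 and 0.0879% in number 2. The 21 synonymous G>A alleles averaged 0.148% and 0.337%, and among them is G5840A. No test was run on these 3 means.

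The residues at the metal centres are histidines 61 and 378 for heme a, histidine 376 for heme a3, and histidines 240, 290 and 291 for copper B, with tyrosine 244 joined to a copper B histidine. Outside Thy replicate 2, 2 of the 63 possible alleles at these 7 residues were counted (3.17%, against 2.01% of COX1 alleles and 2.31% of all alleles). With 2 alleles counted, nothing is read from this share. A6046G, which changes histidine 240 to arginine, was at 1.09% in CD45 replicate 2 (interval 0.928% to 1.28%) and between 0.0152% and 0.676% in the other 15 libraries. CD45 replicate 1 held it at 0.180%, so the level was not shared by both CD45 libraries. C6197T is synonymous at histidine 290 and was at 1.24% in CD24_CD29 replicate 2 (interval 0.968% to 1.58%). It was at most 0.0987% elsewhere and had 0 counts of 10827 in CD24_CD29 replicate 1, which allows a fraction of up to 0.0277%.

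Many counted COX1 alleles reached 1% in only 1 library of a replicate number, as did many in the rest of the mitochondrial genome. Such an allele can still lie just under 1% in other libraries. CD24_CD29 held the most of these alleles outside Thy replicate 2. In CD24_CD29, 13 of 18 counted alleles in replicate 1 and 25 of 34 in replicate 2 were counted in that library alone among the 8 of its number. This was 72.2% and 73.5%, against 58.2% and 66.1% of all counted alleles of the mitochondrial genome in the same libraries. The highest were T5568C (W81R) at 1.65% (interval 1.42% to 1.90%) and A6835T (H503L) at 2.22% (interval 1.86% to 2.63%). In Thy_6C3 replicate 2, 13 of 21 were of this kind (61.9%, against 53% of all counted alleles), led by A5591G (G88G) at 1.89% (interval 1.66% to 2.15%). CD24_CD29 also had the lowest coverage of each number, and its part in these counts was not tested.

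In the other libraries, apart from Thy replicate 2, the highest such alleles were lower. Among them were G5904A (V193M, 1.32%) in CD24 replicate 1, G6006C (D227H, 1.18%) in 6C3 replicate 1 and A6386G (L353L, 1.04%) in CD29 replicate 1. In replicate number 2 there were A5636T (W103C, 1.24%) in CD24 and G6546A (D407N, 1.40%) in CD29. Elsewhere in their number A6386G reached 0.946% and A5636T 0.934%, so these were close to the line in other libraries too. The highest values elsewhere were 0.409% for G5904A, 0.656% for G6006C and 0.564% for G6546A. Thy replicate 2 held 184 of 190 (96.8%, against 93.8% of all counted alleles), the highest being T6516G (F397V) at 2.79%. CD45 replicate 2 held 3 of 7 (42.9%, against 8.53%). CD24 held 4 of 9 and 4 of 10 in replicates 1 and 2 (44.4% and 40%, against 23.7% and 12.8%). It was 4 of 12 in 6C3 replicate 1 (33.3%, against 17.8%) and 3 of 7 in Thy_6C3 replicate 1 (42.9%, against 28.9%). CD29 held 1 of 6 and 6 of 14 (16.7% and 42.9%, against 8.85% and 37.6%). For Thy replicate 1 it was 2 of 7 (28.6%, against 27.9%). These shares rest on few alleles and were not tested. CD45 replicate 1, CD105 replicate 1, 6C3 replicate 2 and CD105 replicate 2 held 0 of 4, 5, 6 and 6. The shares of all counted alleles there were also low, at 4.13%, 1.02%, 8.4% and 5.83%.

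No COX1 allele passed the test between subsets. By edgeR's quasi-likelihood test over all subsets, 0 of 277 were called (0% of all 3487 alleles), with 1 at an unadjusted p under 0.05 and a lowest adjusted p of 0.886. DESeq2 also called 0 (against 0.516% of all alleles), with 6 at an unadjusted p under 0.05. When each subset was set against the average of the 7 remaining ones, edgeR called 0 in all 8 contrasts (0% of all alleles in each). At an unadjusted p under 0.05 there were 125 COX1 alleles for Thy (45.1%, against 49% of all alleles tested), 17 for CD24_CD29 (6.14%, against 6.31%) and 7 for Thy_6C3 (2.53%, against 3.15%). There were 2 each for 6C3 and CD24 (against 0.459% and 1.23% of all alleles) and 0 for CD45, CD105 and CD29 (against 0.115%, 0.172% and 0.86%). By DESeq2 the calls were 146 in Thy (52.7%, against 58% of all alleles), 1 in Thy_6C3 (0.361%, against 0.258%) and 6 in CD24_CD29 (2.17%, against 1.92%). Most alleles tested entered only through Thy replicate 2, so the Thy counts by both methods mainly describe that library. Without Thy replicate 1, edgeR called 177 of 276 COX1 alleles over all subsets (64.1%, against 66.5% of all alleles), 185 for Thy (67%, against 69.2%) and 21 for CD24 (7.61%, against 6.25%). In that fit Thy replicate 2 alone stands for its subset and is assumed to vary like the others. These calls thus describe that library, across the whole mitochondrial genome. The same limit holds for the fit that follows. There CD24_CD29 replicate 2 alone stands for its subset, so the calls describe that library and are no evidence for the subset. Without CD24_CD29 replicate 1 edgeR called 3 for CD24_CD29 (1.14%, against 0.419%).

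The allele with the smallest p in each contrast was one of these. G5440A (R38Q) was at 1.13% and 0.763% in the 2 CD24_CD29 libraries and at most 0.435% in the others. It entered the test only through CD24_CD29 replicate 1. Its adjusted p of 0.393 by edgeR and 0.00804 by DESeq2 is thus no independent evidence for that subset. A5921C (S198S), an A>C change, was at 0.241% and 1.65% in Thy and at most 0.185% elsewhere. It entered the test only through Thy replicate 2, so its adjusted p of 0.0984 by edgeR and 0.0170 by DESeq2 describe that library. G5884A, the stop at codon 186, entered the test only through Thy_6C3 replicate 1. Its lead in Thy_6C3 (adjusted p = 0.999 by edgeR and 0.0439 by DESeq2) is thus no independent evidence either. For 6C3 the leading allele was T6791C (A488A, adjusted p = 0.996), for CD24 C6653T (D442D, 0.977), for CD29 G6546A (0.986), and for CD105 A6102T (T259S, 0.9999) and for CD45 A6050T (P241P, 0.9998), all by edgeR.

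The mutation load is the summed fraction of the 3 non-reference bases at a position, averaged over the positions of the gene. Alleles under 1% make up most of it. Outside Thy replicate 2 the COX1 load was 0.369% to 0.469%, and counted alleles gave 0.00761% to 0.0338%. Transitions gave 0.126% to 0.212%, and C>A with G>T 0.0883% to 0.124%. No background level was available, and the part of sequencing error in the load was not tested. In COX1 the load lay in a narrow range outside Thy replicate 2. It was 0.381% ± 0.0177 in CD24, 0.400% ± 0.0130 in CD105, 0.418% ± 0.0176 in CD45, 0.435% ± 0.00880 in Thy_6C3, 0.443% ± 0.0111 in CD29, 0.455% ± 0.0108 in CD24_CD29 and 0.455% ± 0.0186 in 6C3 (SD, n = 2 each). The Thy libraries were at 0.431% and 1.06%. The libraries of each subset overlapped those of its neighbour in this order, and those of the ends, CD24 and 6C3, did not overlap. The share of variance between subsets was 48.4% (exact permutation test, one-sided, p = 0.402, adjusted p = 0.488 over 2 measures). It was 86.9% without Thy replicate 2 (adjusted p = 0.0230), 86.9% without the Thy subset (adjusted p = 0.0167) and 85.1% over transitions alone (adjusted p = 0.0300), all by the exact permutation test. Without Thy replicate 1 it was 99.6%, but there Thy replicate 2 is a subset of 1 library that adds nothing to the spread within subsets, so this value is no evidence for a difference between subsets.

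The number of counted COX1 alleles was 5.50 ± 2.12 in CD45, 9 ± 4.24 in 6C3, 14.0 ± 9.90 in Thy_6C3, 5.50 ± 0.707 in CD105, 9.50 ± 0.707 in CD24, 26.0 ± 11.3 in CD24_CD29 and 10 ± 5.66 in CD29 (SD, n = 2 each). Thy held 7 and 190. The share of variance between subsets was 44.9% (exact permutation test, one-sided, p = 0.488, adjusted p = 0.488). It was 99.1% without Thy replicate 1, for the same reason as the load.

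The load of COX1 was lower than the mean over the positions of the other 12 mitochondrial protein genes in 16 of 16 libraries. The difference was -0.0284 percentage points (SD 0.0112 over the 8 subsets), with means over 16 libraries of 0.467% for COX1 and 0.495% for the others. An exact sign-flip permutation test over subsets, two-sided, gave p = 0.0078125 and an adjusted p of 0.0078125 over 4 measures, the smallest it can give with 8 subsets. All subsets read the same gene sequence, so this p measures only how alike the subsets are. It does not measure how far genes differ from each other. With equal weight for the 4 reference bases the difference was -0.0273 points. Over transitions alone it was -0.00413 points and over counted alleles alone -0.0118 points, and both are smaller by more than 1.5 times. The change with the largest fractions in COX1 was G>T, at a median of 25.8 per 10000 over 15 libraries, against 29.2 in the other genes, with C>A at 25.6 against 29.0.

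**Figure D3:**
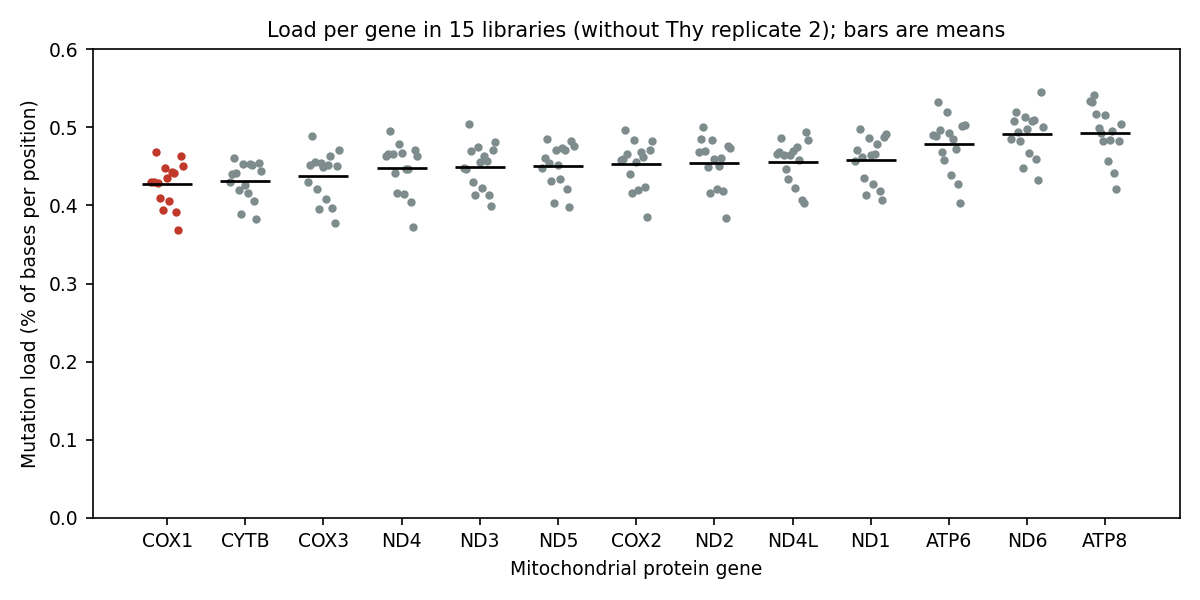
Mutation load in percent of bases per position for each of the 13 mitochondrial protein genes, with 1 point per library for the 15 libraries other than Thy replicate 2 and a bar at their mean, genes in order of the mean. COX1 is lowest at 0.427% and ATP8 highest at 0.493%, and the ranges of most neighbouring genes overlap.

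Over the 15 libraries without Thy replicate 2, the COX1 load averaged 0.427%, below CYTB at 0.431% and COX3 at 0.438%. COX1 was not the lowest gene in every library. In CD24 replicate 1 CYTB was at 0.389% and COX1 at 0.394%. CYTB was also below COX1 in 6C3 replicate 1 (0.461% against 0.469%), CD29 replicate 1 (0.427% against 0.435%) and CD29 replicate 2 (0.444% against 0.451%). In CD45 replicate 1 CYTB (0.43018%) and COX1 (0.43024%) were almost equal. In CD24_CD29 replicate 2 CYTB (0.455%) and COX3 (0.451%) were both below COX1 (0.463%). In the remaining libraries CYTB was above COX1. In Thy replicate 1, for example, CYTB (0.440%) and COX3 (0.452%) were both above COX1 (0.431%). By Spearman correlation over the 16 libraries, the loads of ND1 (0.976), ND5 (0.976) and CYTB (0.95) followed that of COX1 most closely. Genes of a library share its depth and its error level, so these values only describe the libraries. Counted COX1 alleles per 1000 positions were 4.96 fewer than in the other genes on average (14.4 against 19.4 over 16 libraries), lower in 14 of 16 libraries and 8 of 8 subsets (exact sign-flip permutation test, two-sided, p = 0.0078125, adjusted p = 0.0078125). The limit given for the load test holds for this p too. The difference moved between -7.52 and -2.40 as single libraries were left out, the former without Thy replicate 1 and the latter without Thy replicate 2.

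Among the 3 subunits of complex IV coded in mitochondrial DNA, COX1 lay between the other two in counted alleles per length. Outside Thy replicate 2 there were 60.3 per 1000 positions in COX1 (93 alleles), 52.6 in COX2 (36 alleles) and 66.3 in COX3 (52 alleles). Between replicate numbers, edgeR called 13 of 277 tested alleles in COX1 (4.69%), 5 of 128 in COX2 (3.91%) and 7 of 144 in COX3 (4.86%). These shares were not tested against each other. COX1 is larger than COX2 and COX3, and these counts are given per position or per allele tested for that reason.

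Missense transitions of COX1 stood at lower fractions than synonymous ones. The mean fraction, taken within each of the 4 transition types and then averaged, was 0.137% for missense and 0.178% for synonymous transitions over 16 libraries. The difference was -0.0413 points (SD 0.0132 over 8 subsets), below 0 in 15 of 16 libraries, the exception being Thy replicate 1 at 0.00447. The exact sign-flip permutation test, two-sided, gave p = 0.0078125 (adjusted p = 0.0078125). Libraries of a replicate number share alleles, so the 8 subsets are not independent units in these tests. In the other 12 protein genes the means were 0.146% and 0.140%. The difference of COX1 less that of the others was -0.0473 points (SD 0.0122), below 0 in 16 of 16 libraries (p = 0.0078125, adjusted p = 0.0078125, exact sign-flip permutation test, two-sided).

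Averaged over both numbers, most of this gap lay in the 5 alleles counted in all 8 libraries of a number. Without them the difference was -0.0151 points (adjusted p = 0.0156), and -0.0211 points less that of the other genes (adjusted p = 0.0104), by the exact sign-flip permutation test. The other genes kept their alleles of this kind, so the second value compares unlike sets of alleles. The alleles left out were 2 missense ones of number 1 and 3 synonymous ones of number 2. The gap was wider in replicate number 2, at -0.0715 points, than in number 1, at -0.0111 points. The number 2 minus number 1 difference was -0.0604 points (exact sign-flip permutation test over subsets, two-sided, adjusted p = 0.0156 over 4 measures). Subsets share the alleles of a number, so this p measures only how alike the subsets are. Without the 5 alleles the gap was -0.0143 points in number 1 and -0.0159 points in number 2. The difference between numbers was then -0.00156 points (p = 0.883, exact sign-flip permutation test). Capping every fraction at 1% gave a gap of -0.0224 points, and a plain mean over all transitions gave -0.0125 points.

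**Figure D4:**
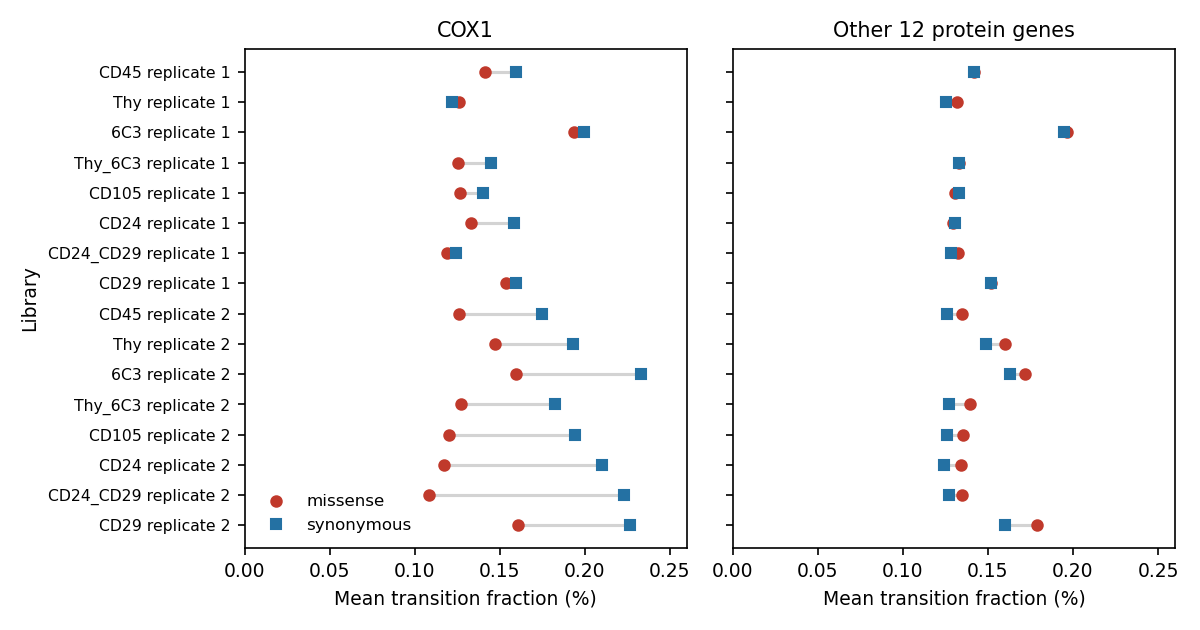
Mean fraction in percent of missense (circles) and synonymous (squares) transitions in each of the 16 libraries, for COX1 (left) and the other 12 protein genes (right). In COX1 the squares lie to the right of the circles in 15 of 16 libraries, by more in replicate number 2, and in the other genes the 2 means lie within 0.0187 points of each other in each library.

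The codon positions of COX1 gave the same transitions in another division. The mean transition fraction in replicate numbers 1 and 2 was 0.130% and 0.129% at codon position 1, 0.160% and 0.151% at position 2, and 0.153% and 0.169% at position 3. In the other 12 genes position 3 was at 0.159% and 0.147%. By transition type, synonymous C>T alleles were at 0.117% and 0.153% and missense C>T alleles at 0.135% and 0.106%. T>C and A>G differed less between kinds, with T>C at 0.197% and 0.187% for synonymous and 0.195% and 0.205% for missense alleles. The C>T and G>A types hold the 5 widespread alleles.

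The summed fraction of counted alleles divides in the same way. Missense alleles counted in a library added to 9.43% to 21.3% in replicate number 1 and, without Thy, to 3.23% to 22.9% in number 2. Synonymous alleles added to 1.21% to 6.82% in number 1 and, again without Thy, to 10.8% to 28.2% in number 2. In CD45, for example, counted missense alleles summed to 10.6% in replicate 1 and 3.23% in replicate 2, and counted synonymous alleles to 1.21% and 10.8%. Outside Thy, CD24_CD29 held the highest sum of each kind in number 2, and the highest missense sum in number 1. Sums of fractions over alleles do not say whether 2 alleles lie on the same molecule.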

How the data were processed

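Alleles and coverage were read from the authors' deposited tables of whole-number counts per position and library, which were not normalized. BWA 0.7.17, cutadapt 2.10 and bcl2fastq 2.20, with the builds mm10 and GRCm38, are named per the submitters' processing notes. How duplicate reads, base quality and reads from nuclear copies were treated is not given in the sources used here, and each can move a low fraction. Codons follow RefSeq's GRCm38.p6 annotation and the vertebrate mitochondrial code. The printed bases are the reference bases of the deposited tables.

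edgeR 4.0.16 (R 4.3.3) took non-reference and reference counts of a library as 2 columns, with a term per library, on the 3487 alleles at 1% or more with at least 5 counts in any library. Subset tests had 8 and replicate tests 7 residual degrees of freedom. The fit and the exact tests were tested on simulated data. Exact tests used all 2027025 pairings of 16 libraries or all 256 sign patterns of 8 subsets. DESeq2 1.42.0, other filters and left-out libraries were alternatives. Python 3.11.15, numpy 2.4.6, scipy 1.17.1 and pandas 2.3.3 were used.

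The gene, the lists and the tests were chosen with earlier results of these data known. Alleles were named by rule: counted in all 8 libraries of a number, the 5 highest per number, the highest counted in a single library of a number, stop or start changes, metal-binding residues, and the leading alleles per contrast. T6078C, A6863G, T6377G, T6833C and C6206T were added after their values were seen, so that every allele called between the numbers is named. Libraries with the same number deviated together from their subset means (28 pairs, r from 0.343 to 0.863 over 3487 alleles), although the labels do not say what a number shares. The subset tests as reported, by edgeR and by exact permutation, did not take this pairing into account. It entered the subset tests only through the replicate block, an alternative edgeR fit.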

Additional observations from a re-analysis of the deposited data

Results flagged for a closer look

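Within each replicate number, 24 sets of 8 libraries were tested for a value standing apart by Dixon's criterion, which flags about 1 in 20 sets by chance, and 5 were found. Thy replicate 2 had a COX1 load of 1.06%, the next library of its number being at 0.463%. It also held 190 counted COX1 alleles, the next 34. G5988A (D221N) was at 1.37% in CD29 replicate 2, the next 0.756%. T6496C (M390T) was at 3.19% in the same library, the next 1.20%. C6227T (D300D) was at 0.547% in CD24 replicate 1, the next 0.267%.

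The missense minus synonymous transition fraction of COX1 differed between replicate numbers, by -0.0604 points (number 2 minus number 1, exact sign-flip permutation test over 8 subsets, adjusted p = 0.0156). Less that of the other 12 protein genes the difference was -0.0702 points (adjusted p = 0.0156, same test). Without the 5 alleles counted in all 8 libraries of a number these were -0.00156 points (adjusted p = 0.961) and -0.0114 points (adjusted p = 0.344), by the same exact permutation test. The other genes kept their alleles of this kind, so -0.0114 compares unlike sets of alleles. Subsets share the alleles of a number, so these p-values do not rest on 8 independent units.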

How the results depend on the processing

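The 4 comparisons of COX1 with the other protein genes or between missense and synonymous transitions kept their sign and stayed under 0.05 in all 22 alternatives of each. Leaving out single libraries gave -0.0309 to -0.0258 points for load, -7.52 to -2.40 counted alleles per 1000 positions, -0.0481 to -0.0345 points for missense minus synonymous and -0.0543 to -0.0403 less the other genes. The load share between subsets of 48.4% passed without the Thy subset (86.9%), without Thy replicate 1 (99.6%, with Thy replicate 2 as a subset of 1) or 2 (86.9%) and over transitions only (85.1%), with 47.1% to 99.6% over left-out libraries. The share for counted alleles ran from 44.3% to 99.1%. COX1 alleles called over all subsets ranged from 0 to 177 and in the 8 contrasts from 0 to 206 over left-out libraries (the highest without Thy replicate 1), 3 without CD24_CD29 replicate 1, and DESeq2 called 153 in the contrasts. Without Thy replicate 1 or CD24_CD29 replicate 1 the subset holds 1 library, so those calls describe that library only. With the replicate block, pairing libraries by number, edgeR called 0 over all subsets and 0 in the contrasts, so the block changed no COX1 call. Alleles higher in replicate 2 numbered 12 with DESeq2 and 4 among alleles at 2% or more (7 as reported, 6 to 9 over left-out libraries). Alleles lower numbered 2 at 2% or more and 3 with no filter on the fraction (6 as reported, 4 to 7), where fewer or more alleles enter the adjustment. With no filter, T6833C (adjusted p = 0.126), C6206T (0.321) and G6006C (0.266) no longer passed by edgeR. No value reversed. Alternatives without A>C and T>G changes, with equal weight of reference bases and without the widespread alleles were chosen after seeing the data. Depth limits fractions below 0.0472% in CD24_CD29 replicate 2.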
